A study of Mus musculus with 16 samples.

Results

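The 33 genes described here are the amino acid arm of the integrated stress response: enzymes that make serine, proline, asparagine and one-carbon units, carriers that bring amino acids into the cell, and regulators and secreted factors that are switched on with them. They were chosen by name, as genes known to be driven by the transcription factor ATF4, and all 33 were found by Entrez identifier among the 36528 identifiers of the deposited tables. Earlier results of these data were known when the genes were chosen. By role they are 6 serine and one-carbon enzymes, 7 other amino acid and glutathione enzymes, 8 amino acid transporters, 7 genes of signalling, translation and feedback, and 5 genes for secreted factors and a receptor. RNA was measured by poly(A) sequencing of whole mouse retina in 16 libraries, 3 days after injury. In crushed retinas the optic nerve, which carries the axons of the retinal ganglion cells, had been crushed; uncrushed retinas had not. Mice received GNE-3511 (DLKi below), an inhibitor of the kinase DLK, at 75 mg/kg, 60 and 68 hours after injury, or the vehicle MCT. The groups hold 5 crushed DLKi, 3 crushed vehicle, 5 uncrushed DLKi and 3 uncrushed vehicle libraries. The labels state 5 mice per drug, so some vehicle retinas are not part of what was analysed here. No strain, age or genotype is labelled, and retinas are not tied to animals, so each p-value reflects only how far these libraries spread. By the stated 5 mice per drug, the 5 crushed and 5 uncrushed DLKi libraries would come from both eyes of the same mice. The main tests treat all libraries as independent and so take no account of shared animals. A fit with libraries paired by title number is given at the end. Inhibitor was given on the last day only, and each retina is a mix of all its cell types.

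In the integrated stress response, kinases that sense starvation, misfolded protein, viral RNA or haem loss phosphorylate the translation factor eIF2. Bulk protein synthesis falls, while the mRNA of ATF4 is translated better. ATF4 pairs with C/EBP proteins on a composite promoter element and switches on genes for amino acid import, serine and one-carbon synthesis and tRNA charging, together with genes that shut the response down again. DLK is a stress kinase of axons that signals an injury to the cell body through JNK, and in injured ganglion cells of mice it is known to act upstream of this response.

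The composite element was searched as TGATGNAA, on both strands, in RefSeq promoter windows of GRCm38.p6 that run from 250 bases before to 50 bases after a gene's start. Of the members, 27 had a window, 31 windows in all; Aldh1l2, Cth, Slc7a3, Slc7a5, Slc1a5 and Eif4ebp1 are named only. A match stood in 10 of the 27 members (37%), against 4.51% of 27025 genes. This share is not independent of the list, whose genes are known ATF4 targets. The members with a match were Chac1, Pycr1, Nupr1, Slc1a4, Asns, Trib3, Vldlr, Got1, Slc7a11 and Fgf21, and Slc7a11 held 2. Whole windows are shown for Chac1, Pycr1, Nupr1 and Slc1a4, the matched members that were higher in crushed retina by the test below. Capitals mark the match, which in Pycr1 reads on the strand of the gene and in the other 3 on the opposite strand.
Chac1 promoter (chr2:119350992-119351291, plus strand): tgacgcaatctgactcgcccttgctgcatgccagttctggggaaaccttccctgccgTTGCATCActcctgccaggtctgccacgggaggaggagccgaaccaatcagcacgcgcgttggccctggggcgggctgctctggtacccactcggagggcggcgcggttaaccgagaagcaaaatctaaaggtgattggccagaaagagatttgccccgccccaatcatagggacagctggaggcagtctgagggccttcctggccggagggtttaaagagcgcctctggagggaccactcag
Pycr1 promoter (chr11:120643699-120643998, minus strand): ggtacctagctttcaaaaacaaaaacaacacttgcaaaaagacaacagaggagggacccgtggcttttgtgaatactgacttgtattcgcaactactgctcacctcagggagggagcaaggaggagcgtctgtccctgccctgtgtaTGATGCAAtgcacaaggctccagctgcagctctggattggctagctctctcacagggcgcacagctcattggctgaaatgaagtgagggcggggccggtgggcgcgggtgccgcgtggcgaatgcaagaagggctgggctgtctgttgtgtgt
Nupr1 promoter (chr7:126625421-126625720, minus strand): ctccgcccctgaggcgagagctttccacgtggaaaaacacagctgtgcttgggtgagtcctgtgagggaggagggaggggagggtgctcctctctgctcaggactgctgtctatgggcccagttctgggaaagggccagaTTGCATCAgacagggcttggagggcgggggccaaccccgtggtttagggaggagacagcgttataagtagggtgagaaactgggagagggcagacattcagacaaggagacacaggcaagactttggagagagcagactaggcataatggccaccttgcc
Slc1a4 promoter (chr11:20332664-20332963, minus strand): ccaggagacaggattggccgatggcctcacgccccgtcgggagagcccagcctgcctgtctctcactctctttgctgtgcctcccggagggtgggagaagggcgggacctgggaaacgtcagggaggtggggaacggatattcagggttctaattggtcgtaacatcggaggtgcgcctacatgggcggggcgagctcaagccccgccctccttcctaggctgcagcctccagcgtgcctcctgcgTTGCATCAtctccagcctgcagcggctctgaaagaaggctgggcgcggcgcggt

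The matches began 193 bases before the start in Chac1, 103 in Pycr1, 110 in Nupr1 and 4 in Slc1a4. Of the 15 members with a window that were called in any comparison, 4 held a match, and so did 6 of the 12 others. Asns is a textbook ATF4 target among the members, and the decision to show its matched stretch came after its values were seen. That stretch, at chr6:7693217-7693240 on the minus strand, reads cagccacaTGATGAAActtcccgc. The match lay 23 bases before the start, and Asns did not pass the test in any comparison. The cyclic AMP element TGACGTCA was found in 1 member, Ppp1r15a, and in 2.03% of all genes. The AP-1 element TGANTCA, searched in the same way, was found in Slc7a1 and Xpot and in 8.97% of all genes. These elements cannot overlap the composite match shown in those genes, since none of the 3 held one.

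**Figure D1:**
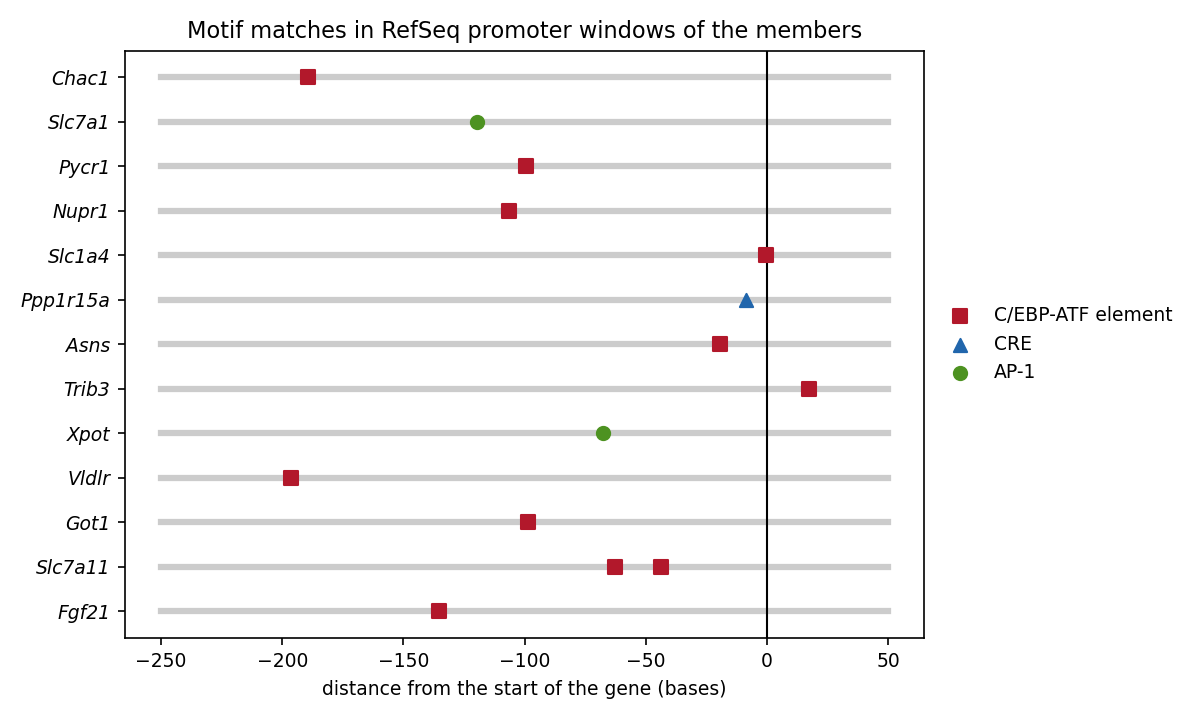
Positions of motif matches in the promoter windows of the 13 members that held one; each grey bar is a window, the horizontal axis is the distance from the gene's start in bases, and the symbol gives the element. The composite C/EBP-ATF element stands in 10 members, mostly before the start.

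Total counts were 22.35 to 44.75 M per library, and the libraries were retinal, with rod markers summing to 19188.5 to 25152.0 nRPKM (RPKM, a level per length and depth, scaled per library by the authors). Uncrushed vehicle 1 and crushed vehicle 3 were the shallowest. Uncrushed vehicle 1 also had the highest mitochondrial share of counts, 4.539% against 2.021 to 3.133% in the others, and the highest sum of pigment epithelium markers, 342.5 nRPKM. Lens markers summed to over 100 nRPKM in uncrushed DLKi 3, uncrushed DLKi 5 and uncrushed vehicle 2. The counts of members called for crush and for the inhibitor are also given below without the 2 shallow libraries and without these 3 lens-rich ones. Counts by sign, by unadjusted p and by overlap of libraries, and those for lists of other genes, are not. Summed over 18 ganglion cell markers, levels were 398.9 to 470.4 nRPKM in crushed DLKi and 315.0 to 434.5 in crushed vehicle, against 608.2 to 793.9 in uncrushed DLKi and 496.7 to 674.0 in uncrushed vehicle retinas. Over 15 microglial markers they were 54.9 to 101.6 and 69.9 to 85.1 in crushed DLKi and crushed vehicle, against 36.2 to 52.6 and 45.3 to 48.5 in uncrushed DLKi and uncrushed vehicle. Both sets of sums were separated between crushed and uncrushed retina in either drug group, and their part in the results below was not tested. Over all 16 libraries the sums were 1965.5 to 2618.0 nRPKM for Müller glia, 68.5 to 96.5 for endothelium and 79.3 to 342.5 for pigment epithelium, with the 4 groups overlapping in each. Lens sums were 3.11 to 28.5 in crushed DLKi and 1.38 to 20.9 in crushed vehicle, against 16.8 to 641.0 in uncrushed DLKi and 2.11 to 248.1 in uncrushed vehicle; 7 lens markers were at 0 in crushed vehicle 1 and 5 in uncrushed vehicle 3. In bulk RNA, fewer cells of a type and less RNA per cell cannot be told apart.

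The first comparison asks what nerve crush did to these genes, with the inhibitor and with vehicle. Amino acid genes of every class were higher after crush and none was lower. Of the 32 members that could be tested, 12 rose in crushed DLKi over uncrushed DLKi retina and 16 in crushed vehicle over uncrushed vehicle retina, at an edgeR quasi-likelihood p of 0.05 or less after Benjamini-Hochberg adjustment over 19391 genes. Of all those genes, 3.29% rose and 2.04% fell with DLKi, and 1.77% rose and 0.861% fell with vehicle. The median log2 change of the members was 0.24 with DLKi and 0.55 with vehicle, against -0.0012 and -0.0028 for all tested genes. At an unadjusted p under 0.05 the counts in either direction were 21 with DLKi (65.6%, against 14.4% of all genes) and 24 with vehicle (75%, against 10.4%), and DESeq2 called 13 and 21 members higher and none lower. In 13 members every crushed DLKi library lay above every uncrushed DLKi library (3.4% of all genes), and in 23 every crushed vehicle library lay above every uncrushed vehicle library (8.13% of all genes). The 10 members that rose in both comparisons were Phgdh, Shmt2, Aldh18a1, Pycr1, Chac1, Slc7a3, Slc7a5, Nupr1, Gdf15 and Stc2.

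With DLKi the count was 13 without the shallow libraries and 8 without the lens-rich ones, and with vehicle it was 15 and 13. It was 6 with DLKi when crushed DLKi 1 was left out and 7 without uncrushed DLKi 2, and 9 with vehicle when only the vehicle libraries were fitted. That fit lost Slc7a5, Slc7a1, Sesn2, Stc2, Slc1a4, Gdf15 and Pycr1, at adjusted p-values of 0.0614 to 0.26.

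**Figure D2:**
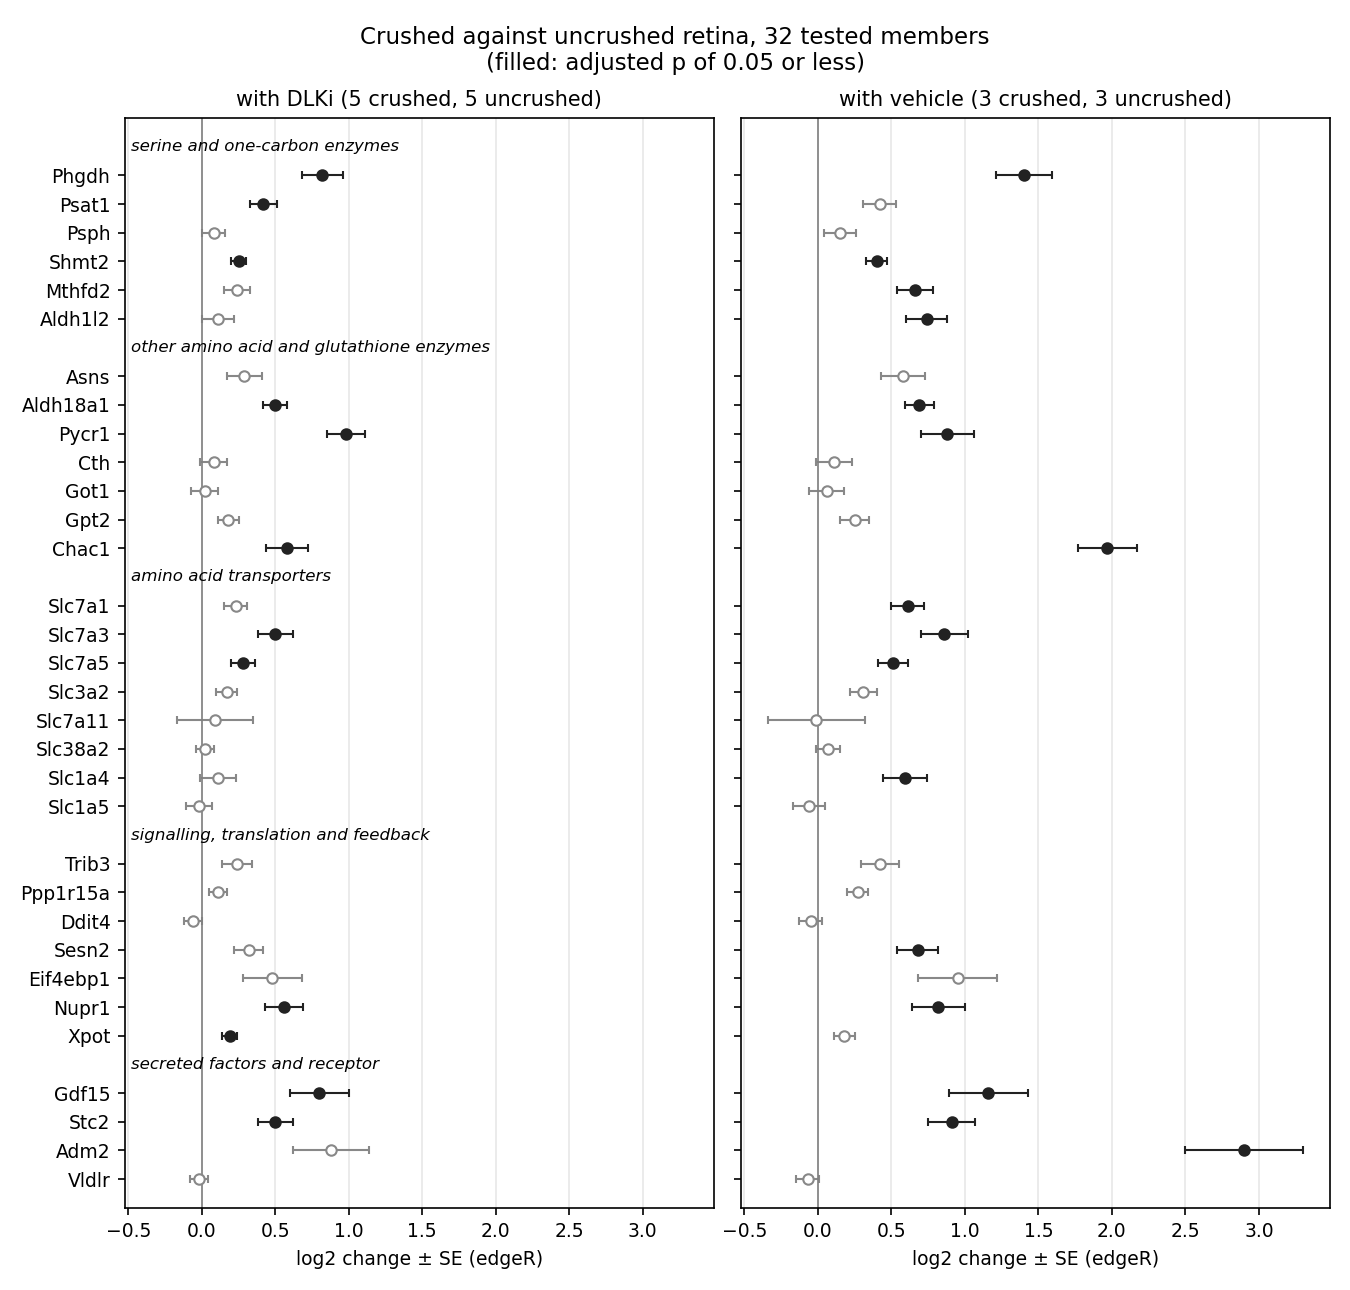
Log2 change (horizontal axis, edgeR estimate ± SE) of crushed over uncrushed retina for the 32 tested members, in role classes, with DLKi on the left and with vehicle on the right; filled symbols passed the test. With DLKi 12 symbols are filled and with vehicle 16, and no filled symbol lies below 0.

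Serine and one-carbon enzymes rose in 3 of 6 cases with DLKi and in 4 of 6 with vehicle. Phgdh, which commits a glycolytic intermediate to serine synthesis, stood at 1.51, 1.74, 1.6, 1.11 and 1.36 nRPKM in crushed DLKi and 1.41, 1.67 and 1.67 in crushed vehicle, against 0.892, 0.785, 0.939, 0.885 and 0.663 in uncrushed DLKi and 0.575, 0.717 and 0.498 in uncrushed vehicle retinas. All 8 crushed libraries were above all 8 uncrushed ones. Its log2 change was 0.82 ± 0.14 with DLKi (edgeR adjusted p = 0.00168) and 1.40 ± 0.19 with vehicle (0.000339). Shmt2, which splits serine into glycine and a one-carbon unit in mitochondria, had 19.5, 18.3, 19.4, 18.5 and 18.4 nRPKM in crushed DLKi and 18.7, 20.6 and 19.2 in crushed vehicle, against 14.8, 14.9, 17.5, 15.2 and 16.7 in uncrushed DLKi and 15.1, 15.0 and 14.3 in uncrushed vehicle retinas. Again crushed and uncrushed libraries did not overlap, although the change was small: 0.25 ± 0.05 with DLKi (edgeR adjusted p = 0.00847) and 0.40 ± 0.07 with vehicle (0.00373).

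Mthfd2, the mitochondrial folate enzyme that acts after Shmt2, measured 8.99, 7.81, 9.64, 7.59 and 7.63 nRPKM in crushed DLKi and 6.68, 6.7 and 6.18 in crushed vehicle, against 6.75, 6.04, 8.6, 6.62 and 7.29 in uncrushed DLKi and 3.99, 4.48 and 3.9 in uncrushed vehicle retinas. Crushed vehicle libraries were all above uncrushed vehicle, while the DLKi groups overlapped through uncrushed DLKi 3. The log2 change was 0.24 ± 0.09 with DLKi, which missed the threshold (edgeR adjusted p = 0.187; 0.0383 without uncrushed DLKi 3), and 0.66 ± 0.12 with vehicle (0.00523). Aldh1l2, which oxidises formyl folate in mitochondria, averaged 1.1 ± 0.161 nRPKM in crushed DLKi and 1.44 ± 0.207 in crushed vehicle, against 1.02 ± 0.0912 and 0.866 ± 0.0651 in uncrushed DLKi and uncrushed vehicle (SD, n = 5, 3, 5 and 3). It rose with vehicle, by 0.74 ± 0.14 (edgeR adjusted p = 0.00539; 0.0523 without crushed vehicle 1 and 0.0595 without the lens-rich libraries), and stood at 0.11 ± 0.11 with DLKi. Of its exon bases, 14.1% overlap D10Wsu102e on the opposite strand, and the library kit does not mark strand. Psat1, the next enzyme of serine synthesis after Phgdh, averaged 19.2 ± 1.34 nRPKM in crushed DLKi and 17.8 ± 2.32 in crushed vehicle, against 14.4 ± 1.66 in uncrushed DLKi and 13.3 ± 1.24 in uncrushed vehicle. It rose by 0.42 ± 0.09 with DLKi (edgeR adjusted p = 0.00593) and had the same estimate, 0.42 ± 0.11, with vehicle (0.0566; 0.0205 at the lowest when crushed vehicle 3 or uncrushed DLKi 5 was left out). Psph, the last enzyme of that path, averaged 12 ± 1.11 nRPKM in crushed DLKi and 11.3 ± 1.07 in crushed vehicle, against 11.4 ± 1.15 in uncrushed DLKi and 10.2 ± 0.649 in uncrushed vehicle. It passed in neither comparison (0.08 ± 0.08 and 0.15 ± 0.11); 21.7% of its exon bases overlap Cct6a on the other strand.

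Among the other enzymes, 3 of 7 rose with DLKi and the same number with vehicle. Chac1, which breaks down glutathione, had the smallest p of all members with vehicle. It measured 7.99, 7.85, 6.39, 8.22 and 6.26 nRPKM in crushed DLKi and 8.51, 10.8 and 8.24 in crushed vehicle, against 5.01, 3.77, 6.65, 5.43 and 3.8 in uncrushed DLKi and 2.11, 2.55 and 2.36 in uncrushed vehicle retinas. Crushed vehicle was far above uncrushed vehicle, whereas the DLKi groups overlapped, uncrushed DLKi 3 lying above the 2 lowest crushed DLKi libraries. The change was 1.49-fold with DLKi (log2 0.58 ± 0.14, edgeR adjusted p = 0.0215) and 3.91-fold with vehicle (log2 1.97 ± 0.20, 1.35e-05). With DLKi the call was lost without crushed DLKi 1, 2 or 4 or uncrushed DLKi 2 (adjusted p up to 0.0648); with vehicle it held in each of the 16 fits that left out 1 library, at up to 0.000227.

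Aldh18a1 and Pycr1 make proline, the first from glutamate and the second in the last step. Aldh18a1 had 18.9, 14.4, 19.8, 15.6 and 17.4 nRPKM in crushed DLKi and 14.4, 13.6 and 13.0 in crushed vehicle, against 11.7, 11.7, 13.1, 12.4 and 11.9 in uncrushed DLKi and 8.23, 9.11 and 8.15 in uncrushed vehicle retinas. Within each drug group the crushed libraries were all higher. Its log2 change was 0.50 ± 0.08 with DLKi (edgeR adjusted p = 0.000461) and 0.69 ± 0.10 with vehicle (0.000562). Pycr1 stood at 0.884, 0.693, 0.719, 0.743 and 0.601 nRPKM in crushed DLKi and 0.766, 0.682 and 0.643 in crushed vehicle, against 0.404, 0.416, 0.368, 0.367 and 0.283 in uncrushed DLKi and 0.383, 0.329 and 0.431 in uncrushed vehicle retinas. No crushed library overlapped an uncrushed one, and the drug groups lay at like levels on each side. Pycr1 rose by 0.98 ± 0.13 with DLKi (edgeR adjusted p = 0.00017) and 0.88 ± 0.18 with vehicle (0.00867; up to 0.0706 without crushed vehicle 1 or uncrushed vehicle 2, and 0.0626 without the lens-rich libraries). Asns, which makes asparagine, averaged 29.6 ± 2.23 nRPKM in crushed DLKi and 24.4 ± 3.23 in crushed vehicle, against 24.3 ± 3.63 in uncrushed DLKi and 16.3 ± 3.65 in uncrushed vehicle. It missed the threshold at 0.29 ± 0.12 with DLKi and 0.58 ± 0.15 with vehicle (edgeR adjusted p = 0.0559; 0.0121 by DESeq2). The aminotransferases Got1 and Gpt2 and the cysteine-making enzyme Cth passed in neither comparison, with log2 changes of 0.02 to 0.18 with DLKi and 0.06 to 0.25 with vehicle. Gpt2 averaged 2.77 ± 0.14 nRPKM in crushed DLKi and 2.37 ± 0.232 in crushed vehicle, against 2.45 ± 0.191 in uncrushed DLKi and 1.99 ± 0.194 in uncrushed vehicle. Cth averaged 2.95 ± 0.272 nRPKM in crushed DLKi and 3.07 ± 0.295 in crushed vehicle, against 2.8 ± 0.139 in uncrushed DLKi and 2.86 ± 0.336 in uncrushed vehicle, with all 4 groups overlapping. Got1 was the most abundant member, at 173.2 ± 15.6 nRPKM in crushed DLKi and 137.7 ± 15.4 in crushed vehicle, against 170.9 ± 14.4 in uncrushed DLKi and 131.9 ± 21.4 in uncrushed vehicle (SD, n = 5, 3, 5 and 3).

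**Figure D3:**
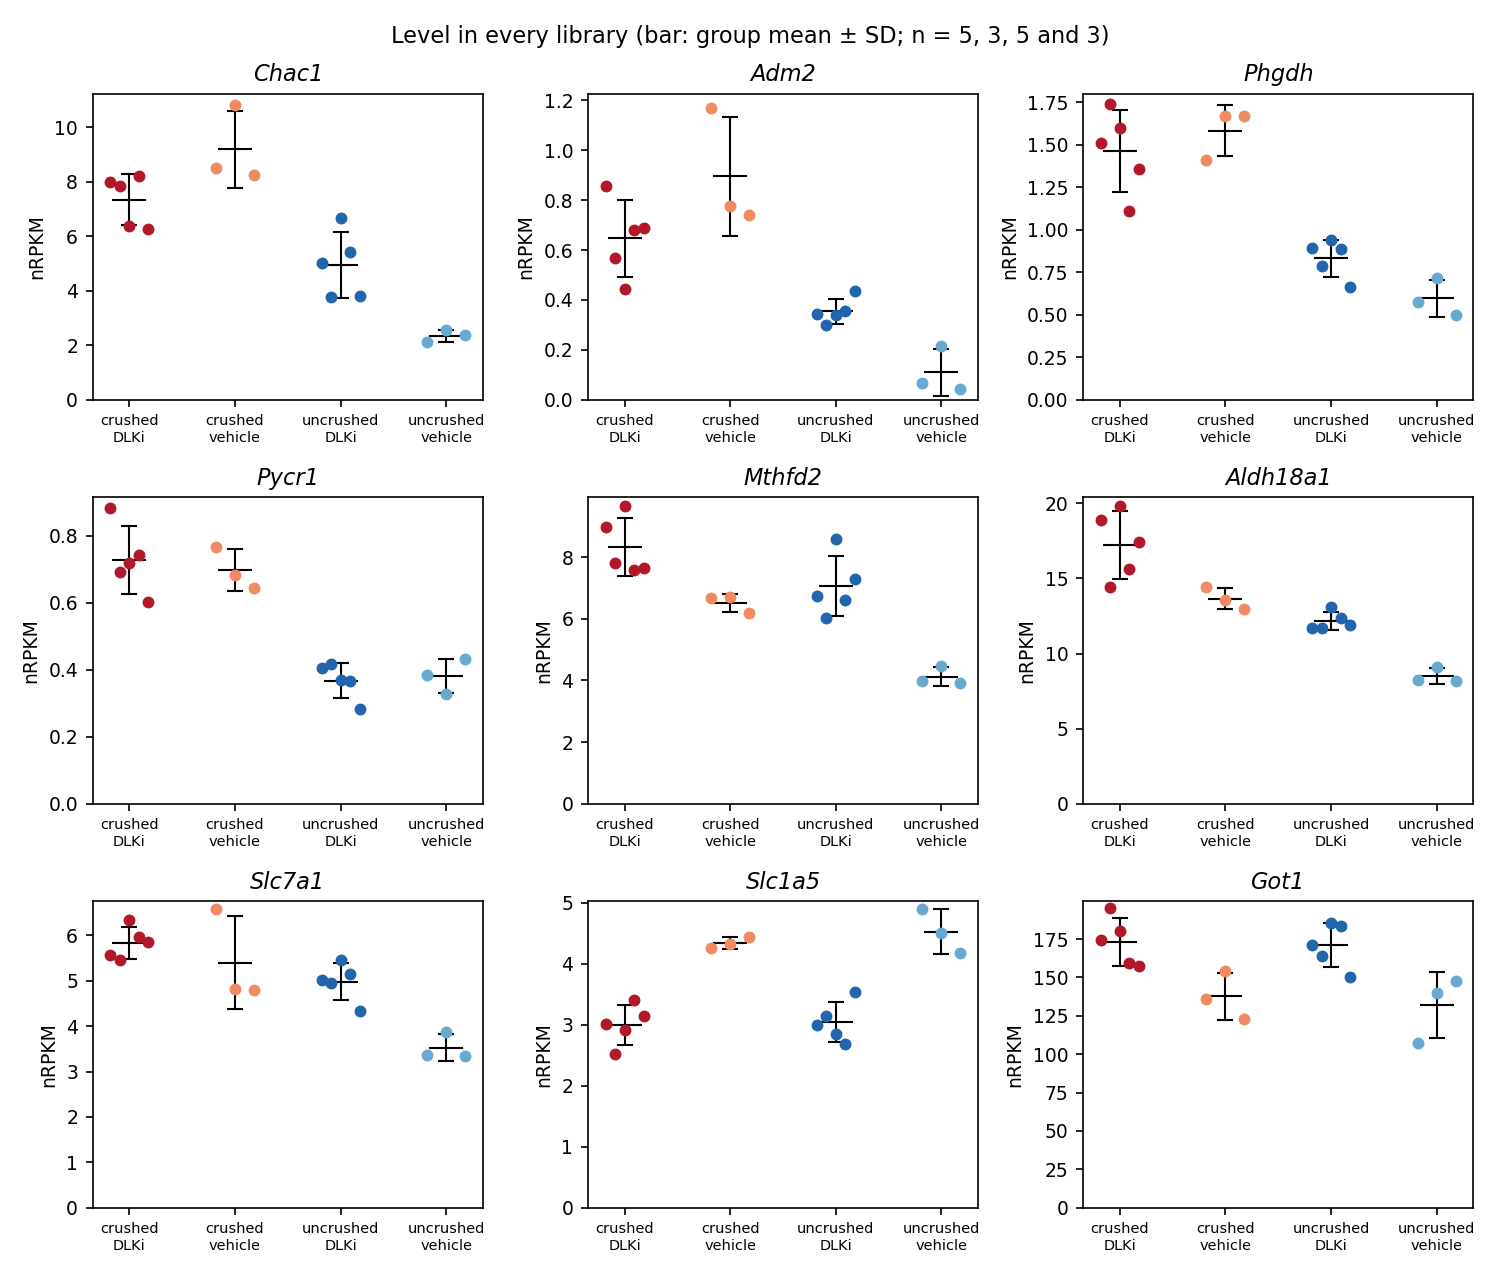
Level (nRPKM, vertical axis from 0) of 9 members in each of the 16 libraries; each point is a library and the bar is the group mean ± SD. Slc1a5 is at 2.52 to 3.53 in all 10 DLKi libraries, under the vehicle libraries at 4.17 to 4.9, and Phgdh and Pycr1 separate crushed from uncrushed retina with either drug; Got1 was added for its abundance.

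Of the 8 transporters, 2 rose with DLKi and 4 with vehicle. Slc7a1, a carrier of arginine and lysine, measured 5.57, 5.45, 6.33, 5.96 and 5.86 nRPKM in crushed DLKi and 6.58, 4.83 and 4.79 in crushed vehicle, against 5.02, 4.95, 5.45, 5.14 and 4.34 in uncrushed DLKi and 3.36, 3.88 and 3.35 in uncrushed vehicle retinas. Vehicle groups did not overlap, and the DLKi groups met at 5.45. The change was 0.23 ± 0.08 with DLKi (edgeR adjusted p = 0.156; 0.0409 without crushed vehicle 1) and 0.61 ± 0.11 with vehicle (0.00386). Slc7a3, a related carrier of the same amino acids, had 2.66, 2.69, 3.2, 2.73 and 2.81 nRPKM in crushed DLKi and 2.76, 2.18 and 2.67 in crushed vehicle, against 1.5, 1.83, 2.3, 1.93 and 2.4 in uncrushed DLKi and 1.59, 1.44 and 1.17 in uncrushed vehicle retinas. Crushed libraries were above uncrushed ones with either drug. Slc7a3 rose by 0.50 ± 0.12 with DLKi (edgeR adjusted p = 0.0161; up to 0.054 without uncrushed DLKi 2 or 4) and 0.86 ± 0.16 with vehicle (0.00491).

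Slc7a5, the light chain of the carrier for large neutral amino acids, averaged 35.4 ± 1.81 nRPKM in crushed DLKi and 32.4 ± 4.89 in crushed vehicle, against 29.2 ± 2.5 in uncrushed DLKi and 22.7 ± 1.97 in uncrushed vehicle (SD, n = 5, 3, 5 and 3). It rose by 0.28 ± 0.08 with DLKi (edgeR adjusted p = 0.0458, lost in 10 of 16 fits that left out 1 library) and 0.51 ± 0.10 with vehicle (0.00747; 0.0662 without crushed vehicle 1). Its partner chain Slc3a2 averaged 52.5 ± 3.53 nRPKM in crushed DLKi and 48.5 ± 3.43 in crushed vehicle, against 46.9 ± 3.38 in uncrushed DLKi and 39.1 ± 3.33 in uncrushed vehicle. It missed the threshold at 0.17 ± 0.07 and 0.31 ± 0.09. Slc1a4, a carrier of alanine and serine, averaged 9.35 ± 0.537 nRPKM in crushed DLKi and 8.53 ± 1.76 in crushed vehicle, against 8.66 ± 1.16 in uncrushed DLKi and 5.63 ± 1.13 in uncrushed vehicle (SD, n = 5, 3, 5 and 3). It rose with vehicle at the edge of the threshold, by 0.59 ± 0.15 (edgeR adjusted p = 0.0482), and 13 of the 16 fits that left out 1 library lost the call. The glutamine carriers Slc38a2 and Slc1a5 and the cystine carrier Slc7a11 passed in neither comparison, with changes of -0.02 to 0.09 with DLKi and -0.06 to 0.07 with vehicle. Slc38a2 averaged 25.3 ± 1.38 nRPKM in crushed DLKi and 26.3 ± 2.29 in crushed vehicle, against 25.1 ± 1.54 in uncrushed DLKi and 25 ± 1.46 in uncrushed vehicle. Slc7a11 averaged 1.44 ± 0.332 nRPKM in crushed DLKi and 1.44 ± 0.337 in crushed vehicle, against 1.35 ± 0.666 in uncrushed DLKi and 1.44 ± 0.117 in uncrushed vehicle. It spread widely between libraries, from 0.685 to 2.36 nRPKM in uncrushed DLKi alone.

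Genes of signalling, translation and feedback rose in 2 of 7 cases with DLKi, Nupr1 and Xpot, and in 2 of 7 with vehicle, Nupr1 and Sesn2. Sesn2, a leucine sensor that restrains mTORC1, measured 9.65, 9.75, 10.6, 10.8 and 9.78 nRPKM in crushed DLKi and 10.9, 11.4 and 8.77 in crushed vehicle, against 7.85, 8.53, 8.68, 8.73 and 6.65 in uncrushed DLKi and 4.86, 6.88 and 7.52 in uncrushed vehicle retinas. Crushed libraries were higher without overlap in both drug groups. The change was 0.32 ± 0.10 with DLKi (edgeR adjusted p = 0.0861; 0.0204 without uncrushed vehicle 1) and 0.68 ± 0.14 with vehicle (0.00769). Nupr1, a small stress-induced chromatin protein, had 25.3, 23.6, 16.4, 17.0 and 16.2 nRPKM in crushed DLKi and 16.3, 19.6 and 17.4 in crushed vehicle, against 14.1, 11, 15.8, 13.5 and 12.5 in uncrushed DLKi and 8.6, 10.3 and 11.2 in uncrushed vehicle retinas. Crushed DLKi 1 and 2 stood highest, and crushed and uncrushed libraries did not overlap within a drug group. Nupr1 rose by 0.56 ± 0.13 with DLKi (edgeR adjusted p = 0.017) and 0.82 ± 0.18 with vehicle (0.0156). The DLKi call was lost without crushed DLKi 1 or 2 or uncrushed DLKi 2 (up to 0.0602), the vehicle call without crushed vehicle 2 or uncrushed vehicle 1 or 2 (up to 0.0757), and both without the lens-rich libraries (0.0522 and 0.0781). Without the shallow libraries the vehicle call was lost as well (0.119).

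Ppp1r15a, the phosphatase subunit that reverses eIF2 phosphorylation, stood at 7.76, 7.95, 7.04, 7.76 and 7.46 nRPKM in crushed DLKi and 7.89, 8.02 and 7.35 in crushed vehicle, against 7.11, 7.12, 7.19, 7.16 and 6.7 in uncrushed DLKi and 6.01, 6.52 and 6.73 in uncrushed vehicle retinas. Vehicle groups were apart and DLKi groups overlapped. It missed the threshold in both comparisons, at 0.11 ± 0.06 with DLKi and 0.27 ± 0.07 with vehicle (edgeR adjusted p = 0.397 and 0.0552). Xpot, which exports tRNA from the nucleus, averaged 7.09 ± 0.225 nRPKM in crushed DLKi and 6.68 ± 0.701 in crushed vehicle, against 6.24 ± 0.141 in uncrushed DLKi and 5.92 ± 0.149 in uncrushed vehicle (SD, n = 5, 3, 5 and 3). It rose by 0.19 ± 0.05 with DLKi (edgeR adjusted p = 0.0415, lost in 11 of 16 fits that left out 1 library) and stood at 0.18 ± 0.07 with vehicle (0.271). Trib3, a pseudokinase that dampens ATF4, Eif4ebp1, a repressor of cap-dependent translation, and Ddit4, an inhibitor of mTORC1, passed in neither. Their changes were 0.24 ± 0.10, 0.48 ± 0.20 and -0.06 ± 0.06 with DLKi, and 0.42 ± 0.13, 0.95 ± 0.27 and -0.05 ± 0.08 with vehicle. Trib3 averaged 4.45 ± 0.485 nRPKM in crushed DLKi and 4.23 ± 0.401 in crushed vehicle, against 3.77 ± 0.459 in uncrushed DLKi and 3.18 ± 0.349 in uncrushed vehicle. Eif4ebp1 averaged 1.68 ± 0.388 nRPKM in crushed DLKi and 1.93 ± 0.106 in crushed vehicle, against 1.21 ± 0.26 in uncrushed DLKi and 0.965 ± 0.364 in uncrushed vehicle. Ddit4 averaged 60.7 ± 2.35 nRPKM in crushed DLKi and 61.7 ± 5.94 in crushed vehicle, against 63.5 ± 3.04 in uncrushed DLKi and 64.2 ± 5.07 in uncrushed vehicle, the groups overlapping throughout.

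Of the 5 genes for secreted factors and a receptor, 4 could be tested; 2 rose with DLKi and 3 with vehicle. Adm2, a peptide of the calcitonin family, had few reads without crush. It had 0.857, 0.569, 0.443, 0.68 and 0.69 nRPKM in crushed DLKi (19 to 37 reads) and 1.17, 0.775 and 0.741 in crushed vehicle (25 to 46 reads), against 0.344, 0.301, 0.338, 0.354 and 0.434 in uncrushed DLKi (15 to 18 reads) and 0.0687, 0.216 and 0.0438 in uncrushed vehicle retinas (2, 11 and 2 reads). All crushed libraries were above all uncrushed ones. The change was 0.88 ± 0.26 with DLKi (edgeR adjusted p = 0.064; as low as 0.0234 when crushed DLKi 3 or uncrushed vehicle 2 or 3 was left out) and 2.90 ± 0.40 with vehicle (0.000322), and 3.98 with vehicle without uncrushed vehicle 2, the library with 11 reads.

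Stc2, a secreted glycoprotein, measured 1.78, 1.58, 1.44, 1.8 and 1.55 nRPKM in crushed DLKi and 1.49, 1.61 and 1.37 in crushed vehicle, against 1.2, 1.14, 1.18, 1.3 and 0.962 in uncrushed DLKi and 0.622, 0.822 and 0.902 in uncrushed vehicle retinas. It rose without overlap in both drug groups, by 0.50 ± 0.12 with DLKi (edgeR adjusted p = 0.0165; 0.0549 without crushed DLKi 1) and 0.91 ± 0.16 with vehicle (0.00317). Without the lens-rich libraries the DLKi value was 0.43 (adjusted p = 0.125). Gdf15, a stress hormone that lowers appetite, had 1.4, 0.836, 0.888, 1.13 and 1.04 nRPKM in crushed DLKi and 0.985, 1.31 and 0.752 in crushed vehicle, against 0.546, 0.647, 0.678, 0.744 and 0.42 in uncrushed DLKi and 0.545, 0.483 and 0.365 in uncrushed vehicle retinas. Crushed and uncrushed libraries did not overlap within a drug group. Gdf15 rose by 0.80 ± 0.20 with DLKi (edgeR adjusted p = 0.0207; up to 0.0752 without crushed DLKi 1 or uncrushed DLKi 1) and 1.16 ± 0.27 with vehicle (0.0246; up to 0.144 without crushed vehicle 1 or 2 or uncrushed vehicle 2 or 3). Without the lens-rich libraries both calls were lost (0.123 with DLKi and 0.0913 with vehicle). Vldlr, a lipoprotein receptor, averaged 33.6 ± 2.34 nRPKM in crushed DLKi and 32.8 ± 2.33 in crushed vehicle, against 34.1 ± 2.66 in uncrushed DLKi and 34.5 ± 1.77 in uncrushed vehicle (SD, n = 5, 3, 5 and 3). It did not pass, at -0.02 ± 0.06 with DLKi and -0.07 ± 0.08 with vehicle. Fgf21, a metabolic hormone, fell under the filter on low counts, with 15 reads in all and at most 5 in a library. Its levels were 0, 0.0498, 0, 0.0554 and 0.123 nRPKM in crushed DLKi and 0.0599, 0.0247 and 0.07 in crushed vehicle, against 0, 0, 0, 0 and 0.0285 in uncrushed DLKi and 0 in each uncrushed vehicle library.

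The next comparison asks what the inhibitor did in uninjured tissue, and it shares the uncrushed vehicle libraries with the crush comparison above. In uncrushed DLKi over uncrushed vehicle retina, Chac1, Mthfd2, Aldh18a1 and Slc7a1 rose and Slc1a5 fell, so 4 of 32 members were higher and 1 lower by edgeR, against 0.263% and 0.366% of all genes. The estimates were positive in 26 of the 32 (81.2%, against 51.6% of all genes), with a median log2 change of 0.29 (0.01 over all genes), and 17 had an unadjusted p under 0.05 (53.1%, against 17.3%). Cell markers moved with this contrast too: all 18 ganglion cell markers had positive estimates (median 0.27, none called by edgeR, 5 with an unadjusted p under 0.05), 14 of 15 lens markers were positive (median 1.22) and 10 of 11 pigment epithelium markers negative (median -0.63). Of 15 microglial markers 14 were negative (median -0.19), with none at an unadjusted edgeR p under 0.05. The part of these markers in the result was not tested. In 12 members every uncrushed DLKi library lay above every uncrushed vehicle library (5.24% of all genes). Mthfd2 changed by 0.77 ± 0.11 (edgeR adjusted p = 0.00535), Chac1 by 1.07 ± 0.18 (0.0145), Aldh18a1 by 0.52 ± 0.09 (0.0159) and Slc7a1 by 0.49 ± 0.10 (0.0332). The per-library values given above show no overlap for any of the 4: the highest uncrushed vehicle value lay under the lowest uncrushed DLKi value. Adm2, at 1.56 ± 0.40, missed the threshold (0.0876), and was 2.64 without uncrushed vehicle 2 (0.0481).

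These calls depended on the libraries in the fit. None of the 5 held, though their estimates kept their direction, without the shallow libraries, without the lens-rich libraries, or when only the uncrushed libraries were fitted. The adjusted p of Mthfd2 was then 0.0518, 0.0586 and 0.0851, and its log2 change without the lens-rich libraries 0.70. The count of higher members was 1 without uncrushed vehicle 1 and 2 without uncrushed DLKi 3, uncrushed DLKi 4, uncrushed vehicle 2 or uncrushed vehicle 3. Leaving out 1 library kept Mthfd2 in all 16 fits (at most 0.0403). It lost Chac1 without uncrushed vehicle 1 or 2 (up to 0.0814), Aldh18a1 without uncrushed DLKi 3 or 4 or any uncrushed vehicle library (up to 0.0839), and Slc7a1 without crushed DLKi 1, uncrushed DLKi 1, 3 or 4 or any uncrushed vehicle library (up to 0.153). DESeq2 called 12 members higher, adding Asns, Got1, Gpt2, Slc7a3, Slc7a5, Slc3a2, Slc1a4 and Stc2, and 1 lower.

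**Figure D4:**
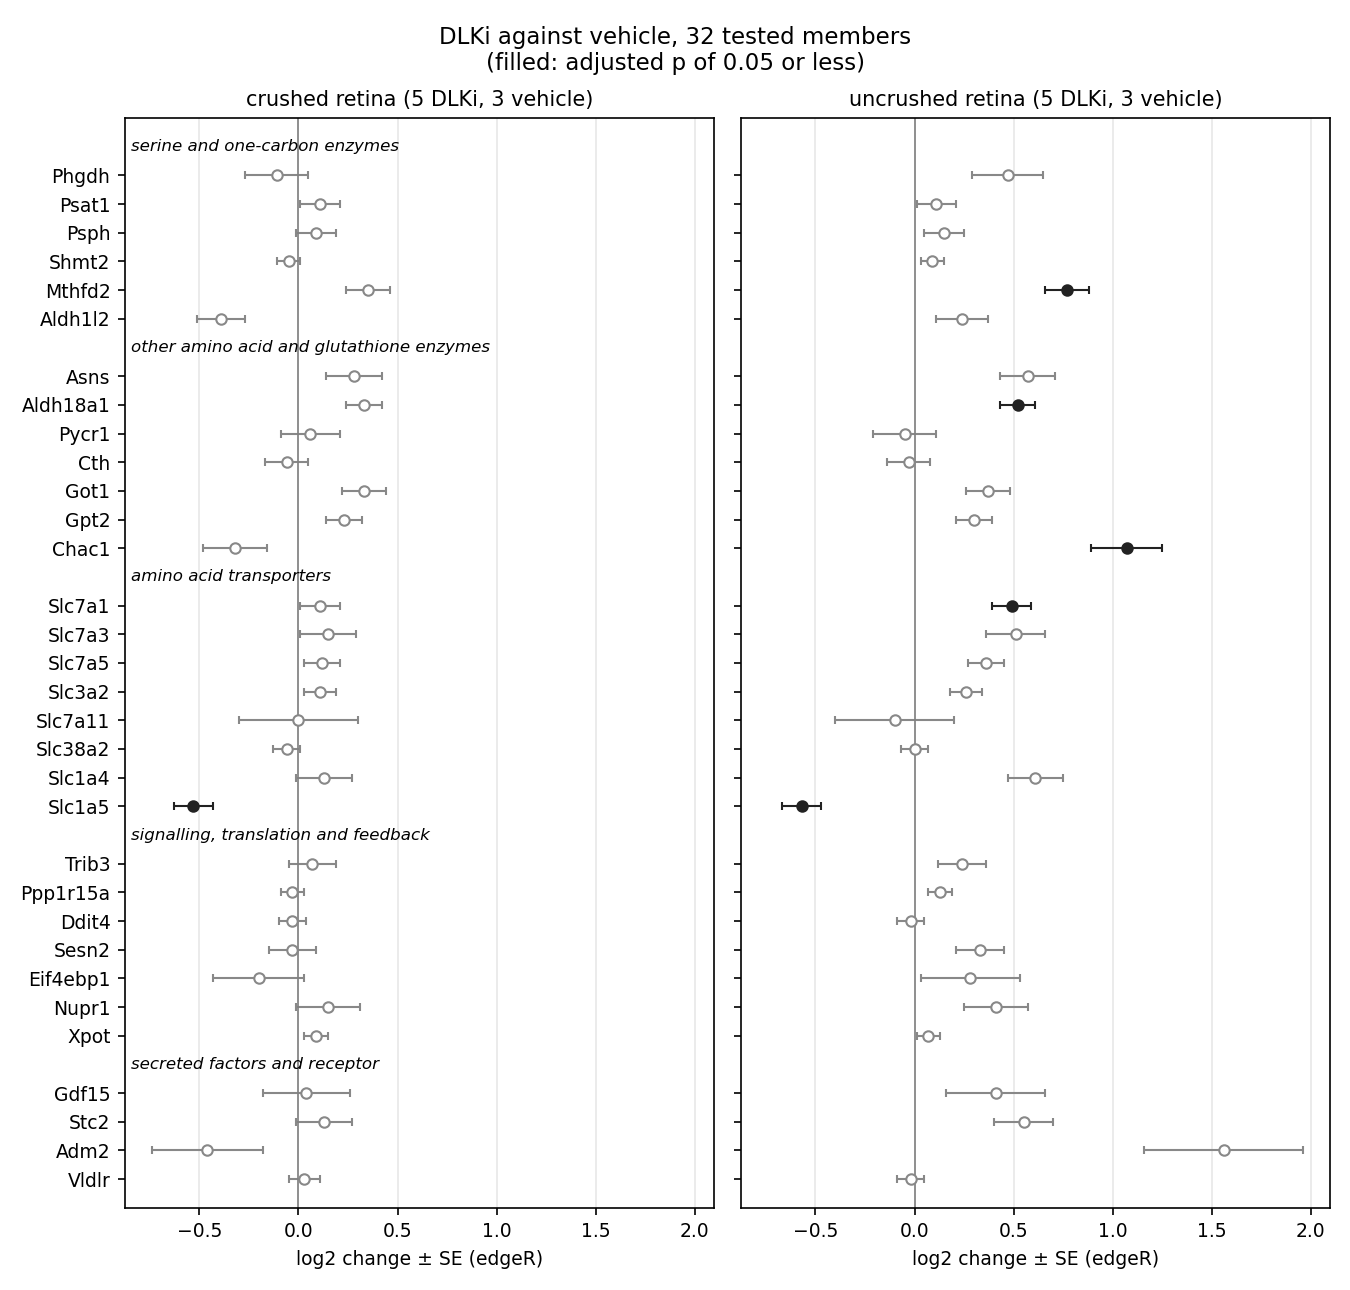
Log2 change (horizontal axis, edgeR estimate ± SE) of DLKi over vehicle for the 32 tested members, in crushed retina on the left and in uncrushed retina on the right; filled symbols passed the test. Slc1a5 is filled below 0 in both panels, and Chac1, Mthfd2, Aldh18a1 and Slc7a1 are filled above 0 in uncrushed retina.

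The comparison of the inhibitor with vehicle in injured tissue asks whether DLK inhibition altered these genes after crush. In crushed DLKi over crushed vehicle retina, 1 of 32 members changed, Slc1a5, which was lower; 0.376% of all genes were lower and 0.129% higher. The median log2 change of the members was 0.06 (0.01 over all genes), with 19 estimates positive (59.4%, against 51.6% of all genes), and 6 had an unadjusted p under 0.05 (18.8%, against 13.7%), shares near those of all genes. Every crushed DLKi library lay above every crushed vehicle library in 3 members (4.68% of all genes), and below in 3 (4.87% of all genes). All 18 ganglion cell markers were again positive (median 0.23), and 3 of them rose. Also positive were 12 of 14 rod markers (median 0.08), 14 of 15 lens markers (median 0.73) and 9 of 15 microglial markers (median 0.03). Of 11 pigment epithelium markers 9 were negative (median -0.32). By edgeR none of these other markers was called, and the part of the markers in the result was not tested. By edgeR no member was called higher, while DESeq2 called 1, Aldh18a1, at 0.33 (DESeq2 adjusted p = 0.0293; 0.111 by edgeR). Chac1 stood at -0.32 ± 0.16, with an interval of -0.66 to 0.02 at the 95% level.

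Slc1a5, which exchanges glutamine for other neutral amino acids, was lower with the inhibitor in both states of the nerve. It measured 3.01, 2.52, 2.91, 3.41 and 3.14 nRPKM in crushed DLKi, against 4.26, 4.32 and 4.44 in crushed vehicle, and 3.0, 3.15, 2.84, 2.68 and 3.53 in uncrushed DLKi, against 4.9, 4.51 and 4.17 in uncrushed vehicle retinas. All 10 DLKi libraries were below all 6 vehicle libraries. The labels state 5 mice per drug, so these libraries do not stand for as many animals. The crushed and uncrushed comparisons may share animals and need not be independent of each other. It fell by 0.53 ± 0.10 on the log2 scale in crushed retina (edgeR adjusted p = 0.0202) and by 0.57 ± 0.10 in uncrushed retina (0.0158). Its crush estimates were -0.02 ± 0.09 with DLKi and -0.06 ± 0.11 with vehicle, and the difference between them 0.04 ± 0.14 (95% interval -0.26 to 0.34). The call in crushed retina was lost without crushed DLKi 3 or any crushed vehicle library (up to 0.132), and that in uncrushed retina without uncrushed DLKi 3 or 4 or uncrushed vehicle 1 or 2 (up to 0.0909). Without the shallow libraries or with only the groups compared, neither call held; without the lens-rich libraries the call in crushed retina held.

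The last comparison takes the difference itself, the crush effect with DLKi minus the crush effect with vehicle. By edgeR 0 of 32 members passed, as did 0.0103% of all genes (2 genes). The estimate was negative in 27 of 32 members, against 10000 of 19391 genes, so the crush estimate was lower with DLKi in those members. The median was -0.18, against -0.0048 for all genes. An unadjusted edgeR p under 0.05 was found for 8 members (25%) and for 1.54% of all genes. All 8 were negative: Chac1, Adm2, Aldh1l2, Slc7a1, Mthfd2, Slc1a4, Phgdh and Sesn2. For Chac1 the difference was -1.39 ± 0.24 (95% interval -1.90 to -0.88), with an adjusted p of 0.139 by edgeR, 0.0441 by edgeR without the filter on low counts and 0.000145 by DESeq2. It passed in none of the 16 fits that left out 1 library (edgeR adjusted p 0.0617 to 0.661). Nor did it pass without the shallow libraries, without the lens-rich ones or with title-number pairs as blocks. For Adm2 the difference was -2.02 ± 0.49 (-3.06 to -0.99), from few reads. Their DLKi estimates had opposite signs in crushed and uncrushed retina: Chac1 was -0.32 ± 0.16 in crushed and 1.07 ± 0.18 in uncrushed retina, and Adm2 -0.46 ± 0.28 and 1.56 ± 0.40. Aldh1l2, Phgdh and Sesn2 were -0.39, -0.11 and -0.03 in crushed and 0.24, 0.47 and 0.33 in uncrushed retina. Slc7a1, Mthfd2 and Slc1a4 were positive in both, at 0.11, 0.35 and 0.13 in crushed and 0.49, 0.77 and 0.61 in uncrushed retina. None of the 8 was called in crushed retina. Pycr1 and Psat1 had differences of 0.11 ± 0.22 and -0.00 ± 0.14.

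Taken library by library, the median of the 32 members, as a log2 difference from the uncrushed vehicle mean, was 0.65, 0.63, 0.61, 0.56 and 0.51 in crushed DLKi and 0.69, 0.53 and 0.38 in crushed vehicle, against 0.25, 0.17, 0.46, 0.31 and 0.21 in uncrushed DLKi and -0.07, 0.08 and 0.02 in uncrushed vehicle libraries. The lowest crushed library, crushed vehicle 3, was under the highest uncrushed one, uncrushed DLKi 3, and each uncrushed DLKi library was above each uncrushed vehicle library. Medians over all tested genes were at most 0.04.

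**Figure D5:**
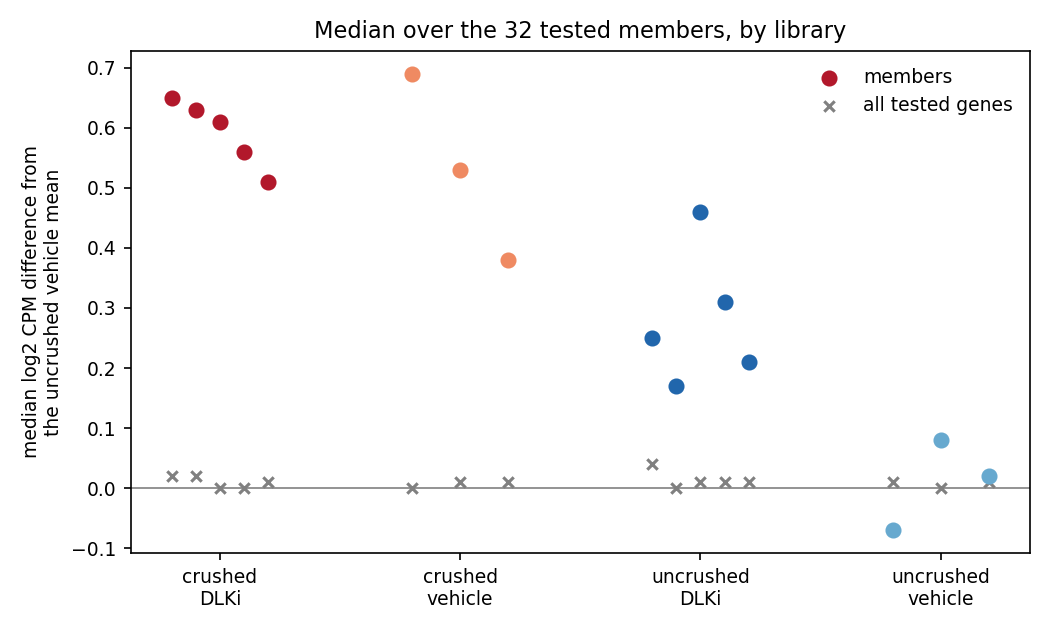
Median over the 32 tested members of the log2 CPM difference from the uncrushed vehicle mean (vertical axis), one point per library, with the median over all 19391 tested genes as crosses. Crushed DLKi and crushed vehicle libraries lie at 0.38 to 0.69, uncrushed DLKi at 0.17 to 0.46 and uncrushed vehicle at -0.07 to 0.08, while the crosses stay near 0.

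Upstream of these genes, 19 kinases, eIF2 subunits and transcription factors were examined. Of these, 4 rose with DLKi and 3 with vehicle, against 3.29% and 1.77% of all genes. At an unadjusted edgeR p under 0.05 there were 8 with DLKi (42.1%, against 14.4% of all genes) and 6 with vehicle (31.6%, against 10.4%). Atf4 itself was abundant, at 157.4, 138.8, 148.8, 131.4 and 152.3 nRPKM in crushed DLKi and 120.5, 134.7 and 115.9 in crushed vehicle, against 141.8, 131.7, 164.1, 135.9 and 133.1 in uncrushed DLKi and 113.8, 111.4 and 110.8 in uncrushed vehicle retinas. It passed the test in none of the 5 comparisons; its crush estimates were 0.05 ± 0.07 with DLKi and 0.15 ± 0.09 with vehicle, and its DLKi estimates 0.24 ± 0.08 in crushed and 0.33 ± 0.08 in uncrushed retina. Atf3, a stress factor of the same family, rose by 2.01 ± 0.16 with DLKi (edgeR adjusted p = 6.44e-07) and 2.78 ± 0.21 with vehicle (4.65e-07), and fell in crushed DLKi relative to crushed vehicle retina (-1.26 ± 0.17, 0.00226). It had 12.4, 10.7, 5.72, 9.11 and 7.02 nRPKM in crushed DLKi and 23.1, 21.6 and 20 in crushed vehicle, against 2.22, 2.58, 2.08, 2.11 and 2.15 in uncrushed DLKi and 3.5, 3.03 and 2.94 in uncrushed vehicle retinas, with no overlap in any of these pairs of groups. Its difference of crush effects, -0.77 ± 0.26, did not pass. Atf5, a related factor, rose by 0.66 ± 0.08 with DLKi and 0.94 ± 0.11 with vehicle, and Ddit3, the pro-death factor CHOP, by 0.41 ± 0.07 with DLKi and 0.72 ± 0.09 with vehicle. Of the eIF2 kinases, Eif2ak2 (PKR, which senses double-stranded RNA) rose with DLKi, by 1.33 ± 0.26 (edgeR adjusted p = 0.00405), with crushed DLKi 4 at 4.09 nRPKM against 1.27 to 1.82 in the rest of its group; it kept the call in every fit that left out 1 library, with a lowest change of 0.90. Ppp1r15b, a constitutive eIF2 phosphatase subunit, was higher in uncrushed DLKi than in uncrushed vehicle (0.31 ± 0.06, 0.0402), a call lost in 11 of the 16 fits that left out 1 library.

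Genes of like function outside the ATF4 list were counted in the same fits. Of 27 other serine, one-carbon and amino acid enzymes, 1 rose and 1 fell with DLKi and none passed with vehicle by edgeR. At an unadjusted edgeR p under 0.05 there were 5 with DLKi (18.5%, against 14.4% of all genes) and 2 with vehicle (7.41%, against 10.4%). DESeq2 called 1 with vehicle. Aldh1l1, a cytosolic folate enzyme of glia, rose by 0.42 ± 0.10 with DLKi (edgeR adjusted p = 0.0199), and Bcat1, which transaminates branched-chain amino acids, fell by 0.19 ± 0.05 (0.036); neither held without the lens-rich libraries, and 4 and 8 of the 16 fits that left out 1 library lost them. Of 24 other amino acid transporters none passed in either crush comparison by edgeR or DESeq2, with 3 (12.5%, against 14.4% of all genes) at an unadjusted p under 0.05 with DLKi and 2 (8.33%, against 10.4%) with vehicle; the smallest p was that of Slc38a7, a lysosomal carrier of glutamine, at 0.24 ± 0.07 with vehicle (edgeR adjusted p = 0.131). Among 16 glutathione genes and targets of the oxidative stress factor NRF2, Srxn1, which repairs peroxiredoxins, rose by 0.70 ± 0.08 with DLKi and 1.07 ± 0.10 with vehicle, and Hmox1, which degrades haem, by 0.92 ± 0.12 with DLKi and 1.30 ± 0.16 with vehicle (edgeR adjusted p at most 0.000123). The haem carrier Slc48a1 fell with DLKi by 0.25 ± 0.05 (0.00275). So 2 of the 16 rose and 1 fell with DLKi (3.29% and 2.04% of all genes), and 2 rose with vehicle (1.77%). An unadjusted edgeR p under 0.05 was found for 5 with DLKi (31.2%, against 14.4%) and 4 with vehicle (25%, against 10.4%). With DLKi 10 estimates were positive and 6 negative (median 0.02). With vehicle 4 were positive and 12 negative (median -0.05).

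The mTORC1 amino acid sensing list and the list of XBP1 and ATF6 targets, which mark the other branches of the unfolded protein response, held no called gene. None of 16 and none of 17 passed in either crush comparison by edgeR or DESeq2, and 0 of 16 and 1 of 17 had an unadjusted p under 0.05 with DLKi (14.4% of all genes), with 0 and 0 with vehicle (10.4%). The smallest p in the first list was that of Rragd, a GTPase that recruits mTORC1 to lysosomes, at 0.07 ± 0.06 with DLKi (edgeR adjusted p = 0.741). In the second it was that of Sdf2l1, a chaperone partner of the endoplasmic reticulum, at 0.32 ± 0.14 with DLKi (0.268).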

How the data were processed

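Per the labels' protocols, 0.5 µg of total RNA went into each of the poly(A) libraries, made with a TruSeq kit that does not mark strand, sequenced as single reads of 50 bases. The authors' deposited counts are whole reads per gene and, per the file headers, come from unique alignments; the deposited nRPKM is RPKM scaled by a size factor per library, whose origin no source here states. GSNAP and GRCm38 are named in the submitters' processing notes, without settings. Of 36528 identifiers 31049 matched a RefSeq symbol.

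Tests used the counts and edgeR 4.0.16 (R 4.3.3). Libraries were scaled by TMM, filterByExpr kept 19391 genes, and a quasi-likelihood model with 4 group means and no covariates was fitted to all 16 libraries (12 residual and 5.27 prior degrees of freedom). Genes were called at an adjusted p of 0.05 or less. The script was tested on simulated data. nRPKM gives levels only. Alternatives were DESeq2 1.42.0, RLE size factors, no filter, only the 2 groups compared, each library left out, and no shallow vehicle pair; leaving out the lens-rich libraries was chosen after seeing the data. Replicate libraries differed beyond sampling noise (chi-square per degree of freedom 6.73 to 42.8), so none was a copy. Replicate numbers follow record order and pair nothing; a fit with libraries of consecutive title numbers as blocks was also chosen after seeing the data.

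Members, lists and tests were chosen with earlier results of these data known. Values in every library are given for up to 3 members per role class with the smallest p in any of the 5 contrasts and for every member called in an inhibitor contrast or the difference; the others by group means ± SD, except Fgf21. From each pathway list, up to 4 genes called in a crush contrast with the smallest p are named, or the gene with the smallest p where none was called; Atf4, Ppp1r15b and the Asns stretch were added after their values were seen. Markers checked also covered Müller glia, endothelium, lens and pigment epithelium.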

Additional observations from a re-analysis of the deposited data

Results flagged for a closer look

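In 4 of the 66 groups of 5 libraries tested, 1 library lay far from the others of its group on nRPKM; chance alone would mark about 1 group in 20. Slc7a3 in crushed DLKi 3 was 3.2, with the other 4 libraries at 2.66 to 2.81. Ppp1r15a in uncrushed DLKi 5 was 6.7, with the others at 7.11 to 7.19. Eif4ebp1 in crushed DLKi 1 was 2.35, with the others at 1.41 to 1.66. Fgf21 in uncrushed DLKi 5 was 0.0285, with the others listed at 0, and rests on 1 read.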

How the results depend on the processing

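Precision is limited by the 3 vehicle libraries per group, the shallowest of which has 22.35 M counts, and for Adm2 and Fgf21 by few reads. Of the 56 pairs of member and comparison that passed under at least 1 setting, none changed sign: 1104 alternative values kept their side of the threshold, 51 passed only under the alternative and 115 only as reported. Without the shallow pair, the median change of DLKi in crushed retina was -0.03 for the serine and one-carbon enzymes, against 0.02, and -0.04 for the secreted factors, against 0.04.

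Titles carry serial numbers that set each crushed library beside an uncrushed one of the same drug, but no label says that a number marks an animal. Deviations from the group means correlated at 0.04 to 0.44 within these 8 pairs, over 0.1 in 6, and in 7 pairs both libraries correlated best with each other, a hint from the data. With such pairs as a replicate block, the crush effect with DLKi had 2080 called genes (50.6% higher) and 18 called members, and that with vehicle 1234 genes (59.8% higher) and 20 members; the difference had 3 genes and 0 members. Other amino acid transporters then had 2 lower with DLKi and 1 higher with vehicle. The inhibitor contrasts lie between pairs and have no such fit.

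Fitting only the vehicle groups gave 281 called genes and 9 called members for the crush effect with vehicle, and leaving out the lens-rich libraries 263 genes, against 510 and 16. The share of higher among the called genes was then 80.8% and 68.8%, and 53.5% without the shallow pair, against 67.3%; it was 49% without uncrushed vehicle 1. Without the lens-rich libraries the crush effect with DLKi had 620 called genes, against 1034. For DLKi in crushed retina, genes called were 406 by DESeq2, 45 with only the 2 groups and 53 without the shallow pair, against 98; members called higher were 1 by DESeq2, and members lower were 0 with only the 2 groups and 0 without the shallow pair. For DLKi in uncrushed retina, genes called were 622 by DESeq2, 3 with only the 2 groups, 11 without the shallow pair and 7 without the lens-rich libraries, against 122; the DESeq2 calls were 55.5% higher, against 51 of 122; members called higher were 12, 0, 0 and 0, and members lower 0 in each of the last 3. For the difference, genes called were 5 by DESeq2, 1 without the shallow pair and 0 without the lens-rich libraries, against 2, and members called lower were 1 by DESeq2 and 1 without the filter. The cause was not tested.

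Leaving out 1 library at a time, the crush effect with vehicle had 276 to 506 called genes and 11 to 18 called members, with 276 genes without crushed vehicle 1, 279 without uncrushed vehicle 2 and 318 without uncrushed vehicle 3. The crush effect with DLKi had 748 to 1258 and 6 to 13. DLKi in crushed retina had 22 to 144 genes, with members lower from 0 to 1; DLKi in uncrushed retina had 17 to 205 genes, members higher from 1 to 6 and lower from 0 to 1; the difference had 1 to 2 genes.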
